A study of Mus musculus with 12 samples.

Results

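Stress relaxation is the fall in stress of a material that is held under a constant strain, and the gene expression change described here is that of cells on a slow-relaxing gel relative to cells on an elastic gel, averaged over a soft and a stiff version of each. All 12 sequenced samples entered: the log2 fold change between 2-kPa viscoelastic and 2-kPa elastic gels and that between 20-kPa viscoelastic and 20-kPa elastic gels weighed equally, so that 6 viscoelastic samples stood against 6 elastic ones. The samples were polyadenylated RNA of primary ear fibroblasts from 1-month-old C57BL/6 mice, used at passage 2. For each sample 500000 cells were seeded, and the cultures were harvested after 48 h. Each of the 4 groups (2-kPa elastic, 20-kPa elastic, 2-kPa viscoelastic and 20-kPa viscoelastic) had 3 replicates. All gels were alginate carrying RGD, the peptide motif that integrins bind, so adhesion ligand was shared by the groups. The elastic gels were crosslinked covalently and the viscoelastic ones ionically with calcium, and stress relaxation therefore cannot be told apart from the crosslinking chemistry or the calcium in these groups. The study calls the replicates biological. Whether they came from separate animals was not given in the sources used here, so the p-values measure the spread between these cultures.

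Fibroblasts grip the matrix through integrins, which join it to the actin cytoskeleton through adaptor proteins such as talin and vinculin. Through the LINC complex this skeleton is coupled to the lamina of the nucleus, and its tension feeds into gene programmes that include proliferation, matrix production and contractility. A covalent network stores the energy of a pulling cell, whereas an ionic network can rearrange and let the stress decay.

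Each sample held 36626221 to 43612804 counts on genes. Values are CPM, counts scaled to library size with TMM factors, and a gene was called when the Benjamini-Hochberg (BH) adjusted p of edgeR's quasi-likelihood test was under 0.05 over the 14542 genes tested. The fibroblast markers were present, their 12 genes summing to 24330.1 to 27028 CPM on elastic and 25092 to 29794 CPM on viscoelastic gels. The 10 leukocyte markers summed to at most 3.60 CPM, and 5 of 8 endothelial and 6 of 10 keratinocyte markers, Pecam1, Cdh5, Krt5 and Krt14 among them, stayed below 1 CPM in every sample. With the other members, the endothelial markers summed to 105 to 148 CPM on elastic and 95.0 to 134 CPM on viscoelastic gels. The keratinocyte markers summed to 43.3 to 75.3 CPM and 54.9 to 67.4 CPM. The 6 Schwann markers, of which 2 were called higher, summed to 47.6 to 80.3 CPM and 57.0 to 97.8 CPM. The summed pericyte and smooth muscle markers did not overlap between gel types (375 to 555 CPM on elastic, 281 to 337 CPM on viscoelastic gels), of which Cspg4 alone gave 363 to 540.2 CPM and 272 to 328 CPM, while Kcnj8, Abcc9 and Des were below 1 CPM throughout. The 8 chondrocyte markers summed to 5300.5 to 7833 CPM on elastic and 5695 to 7611 CPM on viscoelastic gels. Their part in the results below was not tested. Fewer cells of a type and less RNA per cell cannot be told apart in such bulk samples. Mitochondrial genes took 1.77% to 3.34% of the counts, with the highest share in replicate 2 of both viscoelastic groups.

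Gel type went with small shifts in many genes, of which a part passed the test at both stiffnesses in the same direction. On average over stiffness, 2846 genes (19.6% of those tested) were called higher and 2971 (20.4%) lower on viscoelastic gels, with a median log2 fold change of 0.27 and -0.26 among them. Only 69 of the higher and 50 of the lower genes changed by more than 1 on the log2 scale. Over all tested genes, chosen by no result, the log2 fold changes at 2 and at 20 kPa had the same sign in 68.3% and correlated with a Pearson's r of 0.32 and a Spearman's rho of 0.41, given as a description across genes that share the libraries. The 2 stiffnesses share no sample, and in their separate tests 619 genes (4.26%) were called higher at both and 775 (5.33%) lower at both, which makes 1394 of the 5817 genes called on average, while 193 were called at both in opposite directions. Counts of list members below stand against these shares, on average and at both stiffnesses. Log2 fold changes below are averaged over stiffness unless a stiffness is named, and a call on average need not hold at each stiffness. In 852 genes (5.86%) all 6 viscoelastic samples lay above all 6 elastic ones, and in 947 (6.51%) all lay below. The gel effect differed between stiffnesses in 1100 genes (7.56%) by the interaction test, among them 14 of the 619 and 17 of the 775.

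The counts at both stiffnesses moved with single samples. Without replicate 1 of the 2-kPa elastic gels, 356 genes were called higher and 411 lower at both stiffnesses, and without replicate 2 of that group 399 and 447. Without replicate 3 of the 2-kPa viscoelastic gels they were 376 and 472. The interaction was called in 670 genes without replicate 1 of the 2-kPa elastic gels and in 727 without replicate 1 of the 20-kPa viscoelastic gels. Without replicate 2 of both viscoelastic groups, which had the highest mitochondrial shares, 582 genes were called higher and 685 lower at both stiffnesses. With libraries scaled by total counts alone, 60.5% of the genes called on average were higher on viscoelastic gels, against 48.9% with TMM.

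**Figure D1:**
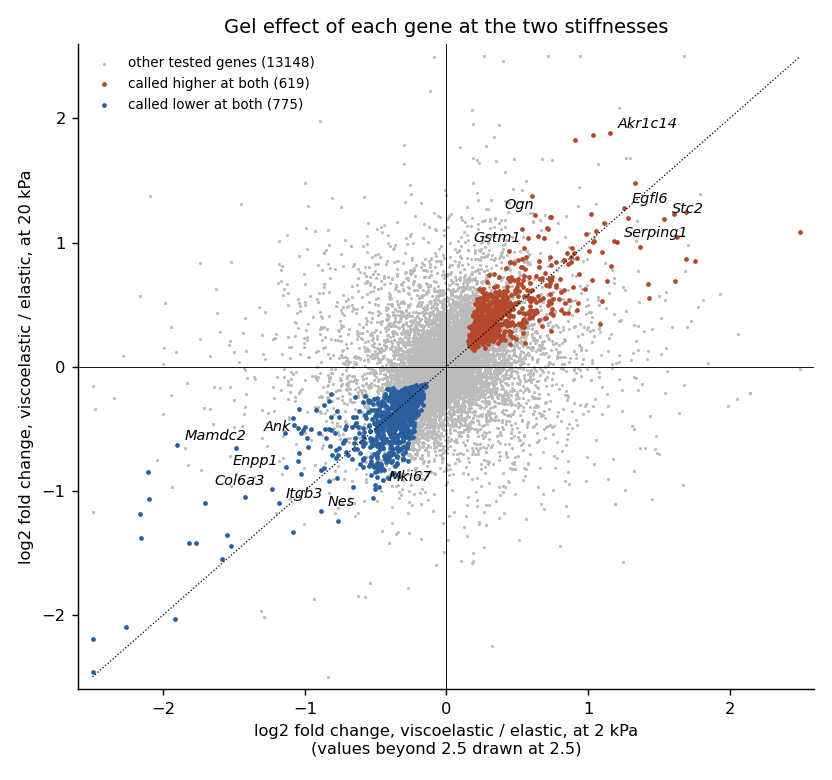
Log2 fold change between viscoelastic and elastic gels at 2 kPa (horizontal axis) and at 20 kPa (vertical axis) for the 14542 tested genes, one point per gene. The 619 genes called higher at both stiffnesses (red) and the 775 called lower at both (blue) lie along the diagonal, where both effects are equal.

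A gene is called consistent here when it passed the test on average and at both stiffnesses and its 6 viscoelastic samples lay on one side of its 6 elastic ones, which held for 394 named genes that rose and 566 that fell at a mean of at least 5 CPM. Genes named for the largest change or the lowest p were picked from these, so their lack of overlap follows from the choice. An enzyme of steroid metabolism and secreted proteins led the rises. Akr1c14, an aldo-keto reductase that acts on steroids (chr13:4049011-4090688, build GRCm38), was at 6.57, 7.05 and 10.7 CPM on 2-kPa elastic gels and 16.8, 18.7 and 18.5 CPM on 2-kPa viscoelastic gels. At 20 kPa Akr1c14 was at 10.0, 8.26 and 6.73 CPM on elastic and 25.2, 39.7 and 27.4 CPM on viscoelastic gels. Every viscoelastic sample was above every elastic one, and replicate 2 of the 20-kPa viscoelastic gels was the highest. Its averaged log2 fold change was 1.52 (SE 0.13, adjusted p = 9.2e-06), a 2.87-fold rise, with 1.16 at 2 kPa (adjusted p = 0.00098) and 1.88 at 20 kPa (adjusted p = 7.5e-05). Stc2, which encodes the secreted glycoprotein stanniocalcin 2 (chr11:31357307-31370074), was at 3.31, 4.16 and 4.75 CPM on 2-kPa elastic gels and 9.86, 13.7 and 11.9 CPM on 2-kPa viscoelastic gels. At 20 kPa Stc2 was at 7.80, 5.59 and 6.51 CPM on elastic and 12.2, 18.7 and 14.5 CPM on viscoelastic gels. Both stiffnesses separated without overlap, and the averaged log2 fold change was 1.37 (SE 0.12, adjusted p = 1.0e-05). Egfl6, a secreted protein with EGF-like repeats, spanned 34.1 to 83.9 CPM on elastic and 95.4 to 206 CPM on viscoelastic gels, with a log2 fold change of 1.26 (SE 0.16, adjusted p = 4.3e-05).

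Serping1, the inhibitor of the C1 proteases, was at 38.9, 56.3 and 56.6 CPM on 2-kPa elastic gels and 105, 121 and 124 CPM on 2-kPa viscoelastic gels. At 20 kPa Serping1 was at 89.0, 65.9 and 49.2 CPM on elastic and 123, 159.8 and 126 CPM on viscoelastic gels. Its groups did not overlap, and the log2 fold change was 1.10 (SE 0.13, adjusted p = 2.8e-05). C1ra and C1s1, which encode C1 proteases, rose as well: the log2 fold change was 0.92 (SE 0.11, adjusted p = 3.3e-05) for C1ra and 0.88 (SE 0.11, adjusted p = 4.7e-05) for C1s1. The small leucine-rich proteoglycans osteoglycin (Ogn) and osteomodulin (Omd), which bind collagen, rose with log2 fold changes of 0.98 (SE 0.10, adjusted p = 2.0e-05) and 0.97 (SE 0.11, adjusted p = 2.7e-05). Ogn had 520.0, 564 and 699 CPM on 2-kPa elastic gels and 904, 1106 and 969 CPM on 2-kPa viscoelastic gels. At 20 kPa Ogn was at 688, 528 and 443 CPM on elastic and 1137, 1442 and 1257 CPM on viscoelastic gels. Its lowest viscoelastic sample was above its highest elastic one.

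Other large rises, as log2 fold changes, were 1.04 for Ankrd55, 1.03 for Ucma, a matrix protein of cartilage, 1.03 for the granin Scg2 and 0.99 for the potassium channel gene Kcnj15. The lowest adjusted p among consistent rising genes belonged to Gstm1, a glutathione S-transferase, which was at 30.3, 30.1 and 30.3 CPM on 2-kPa elastic gels and 42.5, 49.3 and 50.5 CPM on 2-kPa viscoelastic gels. At 20 kPa Gstm1 was at 28.7, 26.3 and 25.1 CPM on elastic and 53.6, 57.0 and 55.6 CPM on viscoelastic gels. Its elastic samples kept within 25.1 to 30.3 CPM, and its log2 fold change was 0.85 (SE 0.049, adjusted p = 4.2e-07). Close behind were Cyb5a, an electron carrier of the endoplasmic reticulum, at 0.60 (SE 0.038, adjusted p = 7.8e-07), the stress-response transcription factor Atf5 at 0.67 (SE 0.050, adjusted p = 4.0e-06), and the lectin-like Clec2d at 0.64 (SE 0.055, adjusted p = 9.2e-06).

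**Figure D2:**
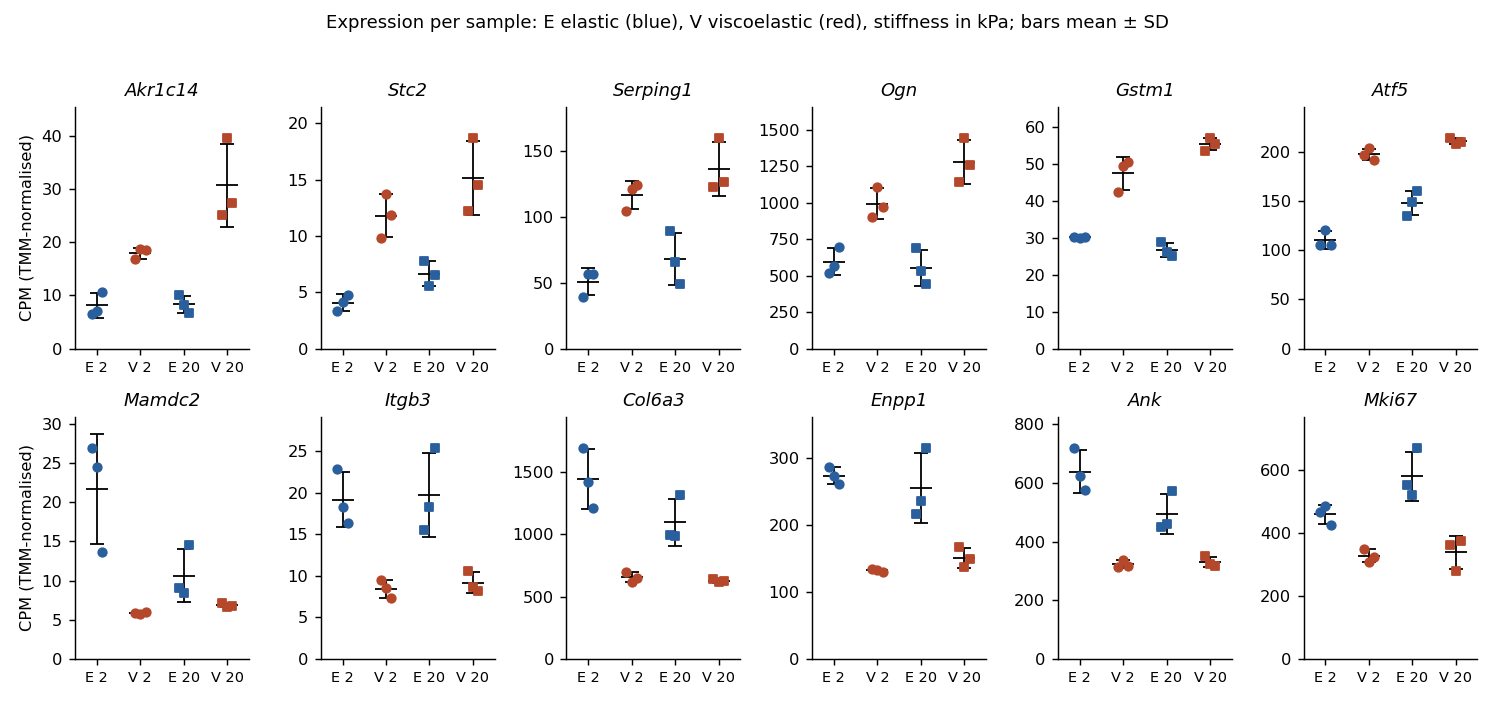
TMM-normalised CPM of 12 genes in every sample on elastic (E, blue) and viscoelastic (V, red) gels of 2 and 20 kPa, with bars at the mean ± SD of 3 replicates. In the upper row the 6 viscoelastic samples are above the 6 elastic ones, and in the lower row they are below. All of these genes except Mki67 were chosen by a rule that requires this separation.

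Integrins, matrix and cell surface proteins were among the genes that fell most. Mamdc2, a secreted proteoglycan with MAM domains, was at 26.9, 24.6 and 13.6 CPM on 2-kPa elastic gels and 5.82, 5.74 and 5.92 CPM on 2-kPa viscoelastic gels. At 20 kPa Mamdc2 was at 9.01, 8.35 and 14.5 CPM on elastic and 7.09, 6.66 and 6.75 CPM on viscoelastic gels. All viscoelastic samples were below all elastic ones, while the elastic samples ranged from 8.35 to 26.9 CPM among themselves, and the averaged log2 fold change was -1.27 (SE 0.16, adjusted p = 4.6e-05). Itgb3, the integrin beta subunit that pairs with alpha v to bind RGD, was at 22.8, 18.2 and 16.4 CPM on 2-kPa elastic gels and 9.46, 8.48 and 7.33 CPM on 2-kPa viscoelastic gels. At 20 kPa Itgb3 was at 15.5, 18.3 and 25.3 CPM on elastic and 10.6, 8.66 and 8.20 CPM on viscoelastic gels. It was lower without overlap, at a log2 fold change of -1.14 (SE 0.12, adjusted p = 1.9e-05), and Itga2, a collagen-binding integrin subunit, fell with a log2 fold change of -0.95 (SE 0.14, adjusted p = 0.00016). The intermediate filament gene nestin (Nes) spanned 15.2 to 35.5 CPM on elastic and 7.37 to 12.3 CPM on viscoelastic gels and had a log2 fold change of -1.03 (SE 0.13, adjusted p = 4.3e-05).

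Col6a3, one chain of the collagen VI microfibril (chr1:90765923-90843971), was at 1691, 1424 and 1212 CPM on 2-kPa elastic gels and 701, 621 and 653 CPM on 2-kPa viscoelastic gels. At 20 kPa Col6a3 was at 996, 984 and 1316 CPM on elastic and 642, 615 and 622 CPM on viscoelastic gels. The viscoelastic samples lay within a narrow band below all elastic ones, and the log2 fold change was -0.97 (SE 0.085, adjusted p = 9.2e-06). The other chains of collagen VI, named after their values were seen, gave smaller values: the log2 fold change was -0.10 (SE 0.055, adjusted p = 0.18) for Col6a1 and -0.14 (SE 0.052, adjusted p = 0.047) for Col6a2, which lost its call in 10 of the 12 fits that left out 1 sample. Other large falls, as log2 fold changes, were -1.21 for Sh2d5, -0.87 for the reelin receptor Lrp8, -0.87 for lubricin (Prg4), -0.84 for the semaphorin Sema7a and -0.83 for Ptprn. Slitrk2 had the lowest adjusted p of the consistent falling genes, with a log2 fold change of -0.66 (SE 0.052, adjusted p = 7.1e-06).

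Enpp1, the ectoenzyme that makes pyrophosphate from ATP (chr10:24637914-24712159), was at 287, 274 and 262 CPM on 2-kPa elastic gels and 135, 133 and 129.9 CPM on 2-kPa viscoelastic gels. At 20 kPa Enpp1 was at 217, 236 and 315 CPM on elastic and 167, 137 and 149 CPM on viscoelastic gels. Ank, the membrane protein through which ATP and pyrophosphate leave the cell, was at 718, 622 and 576 CPM on 2-kPa elastic gels and 312, 338 and 317 CPM on 2-kPa viscoelastic gels. At 20 kPa Ank was at 449, 459 and 571 CPM on elastic and 351, 323 and 317 CPM on viscoelastic gels. Neither gene had an overlap between gel types, and their log2 fold changes were -0.91 (SE 0.078, adjusted p = 9.2e-06) and -0.78 (SE 0.068, adjusted p = 9.2e-06). Nt5e, the CD73 ectoenzyme that turns AMP into adenosine and phosphate, fell with a log2 fold change of -0.81 (SE 0.095, adjusted p = 3.1e-05). The phosphate importers Slc20a1 and Slc20a2 fell with log2 fold changes of -0.61 (SE 0.074, adjusted p = 3.8e-05) and -0.40 (SE 0.055, adjusted p = 1.0e-04), and Spp1, which encodes the mineral-binding protein osteopontin, at -0.60 (SE 0.11, adjusted p = 0.00086). Some genes that also act on phosphate or mineral did not pass the test: the tissue-nonspecific phosphatase Alpl had a log2 fold change of 0.18 (SE 0.093, adjusted p = 0.13), matrix Gla protein (Mgp) one of -0.13 (SE 0.10, adjusted p = 0.33) and the phosphatase Phospho1 one of -0.82 (SE 0.42, adjusted p = 0.13). Without replicate 1 of the 2-kPa viscoelastic gels, Alpl and Phospho1 passed it, with log2 fold changes of 0.24 (adjusted p = 0.046) and -1.30 (adjusted p = 0.022). Mgp passed it without replicate 2 of both viscoelastic groups, at -0.31 (adjusted p = 0.0050), and with gene length and GC content corrected, at -0.32 (adjusted p = 0.028). Slc20a1, Slc20a2, Alpl, Mgp and Phospho1 were named after their values were seen. These genes form no list with a background share, and most were chosen because they fell.

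Most genes of the mitotic and DNA replication lists were called lower on average. Of 43 mitotic genes, 42 were called lower and none higher, 22 of them at both stiffnesses, and their median log2 fold change was -0.43 against 0.0097 over all tested genes. Of 49 DNA replication genes, 39 were called lower and 1, Rpa3, higher, which was not called with gene length and GC content corrected, with 21 lower at both stiffnesses and a median of -0.30. The medians at 2 and at 20 kPa were -0.27 and -0.61 for the mitotic and -0.21 and -0.40 for the replication genes. Mki67, the proliferation marker Ki-67, was at 467, 486 and 427 CPM on 2-kPa elastic gels and 349.9, 309 and 326 CPM on 2-kPa viscoelastic gels. At 20 kPa Mki67 was at 555, 521 and 670.2 CPM on elastic and 364, 279 and 376 CPM on viscoelastic gels. The 6 viscoelastic samples were below the 6 elastic ones, with a log2 fold change of -0.63 (SE 0.078, adjusted p = 4.3e-05). The kinetochore scaffold Knl1 fell with a log2 fold change of -0.65 (SE 0.10, adjusted p = 0.00023), the checkpoint kinase Bub1 at -0.64 (SE 0.076, adjusted p = 3.4e-05), and Foxm1, the transcription factor of the mitotic programme, at -0.64 (SE 0.081, adjusted p = 5.5e-05). Bub3, whose product also works outside mitosis, was the mitotic gene without a call at -0.023.

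In the replication group, the polymerase epsilon subunit Pole fell with a log2 fold change of -0.70 (SE 0.084, adjusted p = 3.6e-05), the flap endonuclease Fen1 at -0.67 (SE 0.14, adjusted p = 0.0014) and the origin-firing factor Mcm10 at -0.66 (SE 0.068, adjusted p = 1.9e-05). Levels of Fen1 were low and overlapped, at 1.29 to 2.10 CPM on elastic and 1.00 to 1.38 CPM on viscoelastic gels. Of the 30 genes of G1 cyclins, CDK inhibitors and p53 targets, 6 were called higher and 6 lower. These shares were near the 19.6% and 20.4% of all tested genes. The higher count was 3 without replicate 2 of the 20-kPa elastic or replicate 3 of the 20-kPa viscoelastic gels. Cyclin E2 (Ccne2) fell with a log2 fold change of -0.60 (SE 0.11, adjusted p = 0.00051), and the CDK inhibitor Cdkn1c rose on average with a log2 fold change of 0.83 (SE 0.12, adjusted p = 0.00014), with 0.19 at 2 kPa (adjusted p = 0.48) and 1.48 at 20 kPa (adjusted p = 0.00010).

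Promoters of both lists are shown because their members moved together. They are the 250 bases before and 50 bases after a RefSeq start (GRCm38.p6), in the direction of the gene, with matches in capitals. A RefSeq promoter was matched by symbol for 10882 of the tested genes. The motif TTTGAA, the sequence of cell cycle homology regions, was searched on both strands and was in 25 of 35 (71.4%) mitotic promoters, against 1306 of 10882 over all tested genes. CCAAT was in 25 of 35 (71.4%) against 4220 of 10882 (38.8%). For TTCCCGC, which is part of the E2F consensus, the counts were 16 of 40 (40.0%) in the replication promoters and 916 of 10882 (8.42%) overall. A match describes the letters and shows no binding. All list members with a promoter were counted, called or not, so these shares describe the lists and not the gel effect. Matches of TTTGAA and CCAAT on either strand are marked in the mitotic genes Knl1 (chr2:119046869-119047168, plus strand) and Mki67 (chr7:135716330-135716629, minus strand). Knl1 holds TTTGAA without CCAAT, and Mki67 holds both. Matches of TTCCCGC on either strand are marked in the replication genes Uhrf1 (chr17:56303087-56303386, plus strand) and Pola1 (chrX:93632106-93632405, minus strand).
Knl1: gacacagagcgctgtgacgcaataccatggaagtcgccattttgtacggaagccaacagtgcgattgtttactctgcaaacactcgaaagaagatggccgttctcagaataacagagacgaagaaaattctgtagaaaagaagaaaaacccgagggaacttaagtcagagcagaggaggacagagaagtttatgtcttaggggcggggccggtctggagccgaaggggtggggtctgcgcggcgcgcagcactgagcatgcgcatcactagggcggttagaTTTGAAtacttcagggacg
Mki67: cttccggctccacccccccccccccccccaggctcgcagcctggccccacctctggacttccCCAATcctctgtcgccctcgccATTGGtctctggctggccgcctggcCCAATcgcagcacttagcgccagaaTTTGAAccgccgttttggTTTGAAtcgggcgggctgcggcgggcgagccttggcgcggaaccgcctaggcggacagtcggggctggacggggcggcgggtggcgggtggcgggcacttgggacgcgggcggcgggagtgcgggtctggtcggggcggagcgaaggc
Uhrf1: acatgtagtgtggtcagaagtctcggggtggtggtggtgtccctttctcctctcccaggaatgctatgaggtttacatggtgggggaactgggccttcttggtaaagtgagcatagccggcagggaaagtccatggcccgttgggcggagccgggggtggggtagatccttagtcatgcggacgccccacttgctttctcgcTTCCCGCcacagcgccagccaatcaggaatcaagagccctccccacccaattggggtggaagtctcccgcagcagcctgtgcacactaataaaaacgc
Pola1: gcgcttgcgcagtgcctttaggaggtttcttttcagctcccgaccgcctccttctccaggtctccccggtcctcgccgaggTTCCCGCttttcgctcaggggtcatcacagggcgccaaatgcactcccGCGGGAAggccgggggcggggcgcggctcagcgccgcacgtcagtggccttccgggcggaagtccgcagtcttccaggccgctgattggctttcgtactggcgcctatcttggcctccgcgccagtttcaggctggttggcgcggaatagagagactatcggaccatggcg
These 4 genes were chosen from members called lower at both stiffnesses at a mean of at least 5 CPM. They had the largest falls among those whose promoter held TTTGAA, for the mitotic list, or TTCCCGC, for the replication list. Promoters on part of the genome were not eligible. Uhrf1, which guides maintenance DNA methylation, fell with a log2 fold change of -0.59 (SE 0.055, adjusted p = 1.3e-05), and Pola1, the catalytic subunit of polymerase alpha, at -0.55 (SE 0.067, adjusted p = 3.9e-05). The share of promoters with TTTGAA was 15.2% among all genes called lower at both stiffnesses and 11.7% among those called higher at both.

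Genes of the nuclear pore, the lamina and the LINC complex were called in 1 direction. Of 34 nuclear pore genes 23 were called lower and none higher, 12 at both stiffnesses, with a median log2 fold change of -0.25. Ndc1, which anchors the pore in the membrane, fell with a log2 fold change of -0.59 (SE 0.055, adjusted p = 1.2e-05), and Nup160 and Nup205, of the outer and inner ring, at -0.46 (SE 0.053, adjusted p = 2.8e-05) and -0.45 (SE 0.071, adjusted p = 0.00023). Ndc1 was at 70.2, 73.6 and 68.0 CPM on 2-kPa elastic gels and 53.6, 53.3 and 51.0 CPM on 2-kPa viscoelastic gels. At 20 kPa Ndc1 was at 79.3, 84.8 and 101 CPM on elastic and 54.9, 49.0 and 53.5 CPM on viscoelastic gels, with the viscoelastic samples below the elastic ones. Of 18 lamina and LINC genes 11 were called lower and none higher, led by the nesprin Syne2 at -0.57 (SE 0.10, adjusted p = 0.00033), the lamin B receptor Lbr at -0.51 (SE 0.056, adjusted p = 2.2e-05) and the nesprin Syne3 at -0.44 (SE 0.076, adjusted p = 0.00046). The lamins Lmnb1 and Lmna fell on average with log2 fold changes of -0.36 (SE 0.062, adjusted p = 0.00047) and -0.25 (SE 0.056, adjusted p = 0.0028), and at 2 kPa alone neither passed the test (adjusted p = 0.11 and 0.13).

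For chromatin enzymes the counts moved with a correction for gene length. Of 51 histone methyltransferase and demethylase genes 24 were called lower and none higher, with a median log2 fold change of -0.11. With sample-specific trends on gene length and GC content removed, 13 were called lower and 7 higher, and the median was -0.023. The methyltransferases Nsd2 and Suv39h2 fell with log2 fold changes of -0.51 (SE 0.077, adjusted p = 0.00018) and -0.49 (SE 0.084, adjusted p = 0.00044), and Jmjd1c at -0.30 (SE 0.042, adjusted p = 9.7e-05). The maintenance DNA methyltransferase Dnmt1 fell with a log2 fold change of -0.49 (SE 0.054, adjusted p = 2.5e-05). Of 34 acetyltransferase, deacetylase and reader genes, 8 were called higher and 7 lower, shares near the 19.6% and 20.4% of all tested genes, and 12 and 6 with length and GC corrected. Among them Sirt5, Hdac8 and Kat8 rose with log2 fold changes of 0.35, 0.33 and 0.22, and Kat6a and Hat1 fell with values of -0.34 and -0.21, as log2 fold changes. Hdac1 was called at 0.11 (SE 0.035, adjusted p = 0.017), which became 0.063 (adjusted p = 0.15) with length and GC corrected. Kat2b was called at 0.18 (SE 0.057, adjusted p = 0.023). That call was lost without replicate 1 or 2 of the 2-kPa elastic gels, replicate 3 of the 20-kPa elastic gels, replicate 3 of the 2-kPa viscoelastic gels or replicate 1 of the 20-kPa viscoelastic gels, where the adjusted p was 0.050 to 0.062 and the log2 fold change 0.14 to 0.17.

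Integrin genes were called in 1 direction. Of 20 tested subunits 11 were called lower and none higher, 6 at both stiffnesses, and the median log2 fold change was -0.23. With length and GC corrected, 11 were called lower and 2 higher. Beside Itgb3 and Itga2, the laminin receptor subunit Itga6 fell with a log2 fold change of -0.60 (SE 0.087, adjusted p = 0.00013). Itgb1, the beta subunit shared by most fibroblast integrins, fell on average with a log2 fold change of -0.23 (SE 0.050, adjusted p = 0.0023), with its 6 viscoelastic samples (up to 1491 CPM) below the 6 elastic ones (from 1530.3 CPM), though at 2 kPa alone its log2 fold change was -0.12 (adjusted p = 0.25). Of 40 focal adhesion adaptor and kinase genes, 19 were called lower and 3 higher. At both stiffnesses only Parvb was called lower, against 5.33% of all tested genes, and only Rsu1 higher, against 4.26%. The count called higher on average was 1 without replicate 2 of the 2-kPa elastic, replicate 3 of the 20-kPa elastic or replicate 3 of the 20-kPa viscoelastic gels, and 5 without replicate 1 of the 20-kPa elastic gels. Filamin A (Flna) and vinculin (Vcl) fell on average with log2 fold changes of -0.51 (SE 0.079, adjusted p = 0.00020) and -0.49 (SE 0.090, adjusted p = 0.00073), and Rsu1, a partner of the PINCH adaptor, rose with a log2 fold change of 0.28 (SE 0.042, adjusted p = 0.00016). With length and GC corrected, the focal adhesion counts were 15 lower and 8 higher.

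Of 27 contractile genes of actin, tropomyosin and myosin, 7 were called higher and 7 lower, shares near the 19.6% and 20.4% of all tested genes, and 12 had a gel effect that differed between stiffnesses, against 7.56% of all tested genes. The light chain Myl6 rose with a log2 fold change of 0.31 (SE 0.038, adjusted p = 3.9e-05) and the kinase Mylk at 0.40 (SE 0.080, adjusted p = 0.0013), while gamma actin (Actg1) and the non-muscle myosin Myh10 fell with log2 fold changes of -0.38 (SE 0.087, adjusted p = 0.0033) and -0.29 (SE 0.053, adjusted p = 0.00060). At 2 kPa alone Mylk had a log2 fold change of 0.15 (adjusted p = 0.38) and Actg1 one of -0.34 (adjusted p = 0.067). Acta2, the smooth muscle actin of myofibroblasts, had an averaged log2 fold change of -0.079 (SE 0.058, adjusted p = 0.29), with 0.28 at 2 kPa (adjusted p = 0.026) and -0.44 at 20 kPa (adjusted p = 0.0011). With length and GC corrected its average was called lower, at -0.20 (adjusted p = 0.019). Of 22 YAP and TEAD targets, 7 were called higher and 8 lower, against 19.6% and 20.4% of all tested genes. With length and GC corrected, 5 were called lower. The matricellular Ccn1 and the kinase Nuak2 rose with log2 fold changes of 0.54 and 0.50, and Nt5e and Dock5 fell with values of -0.81 and -0.76 on the log2 scale, all 4 at both stiffnesses.

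**Figure D3:**
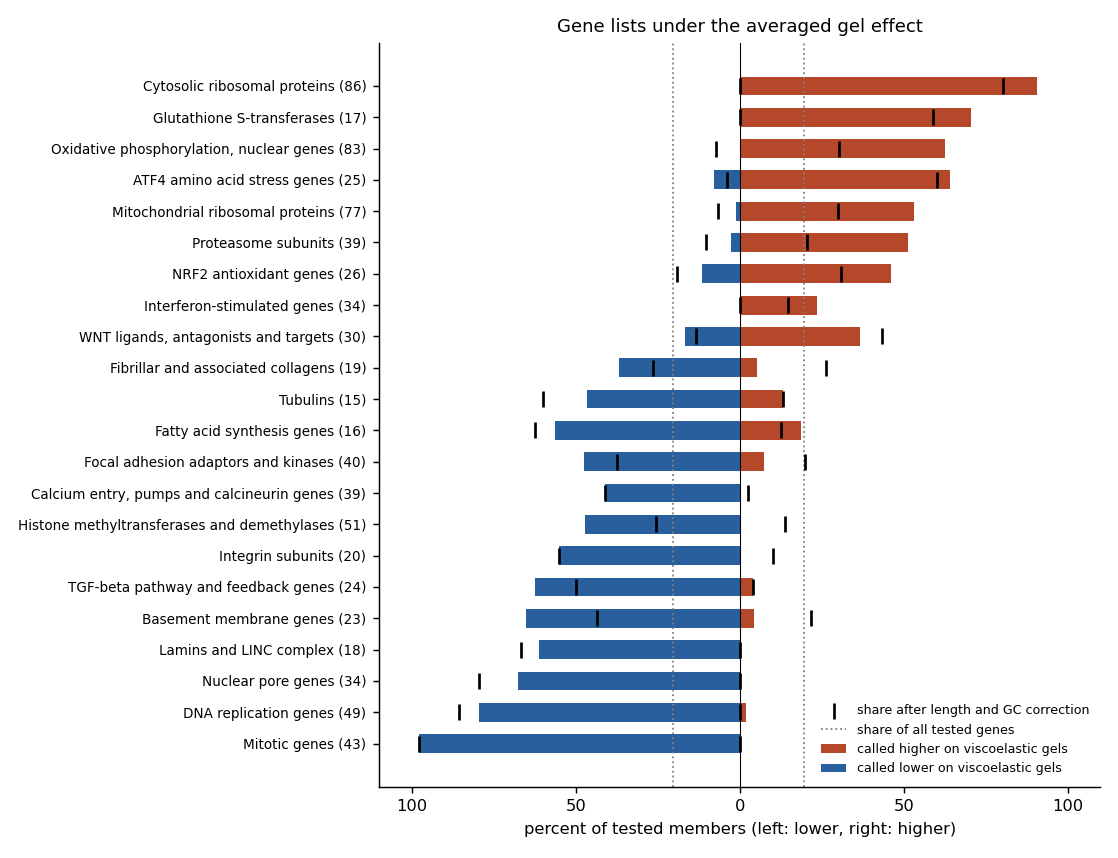
Percent of the tested members of a gene list called higher (red, right) or lower (blue, left) on viscoelastic gels under the averaged effect, for the 9 lists leaning most to higher and the 13 leaning most to lower among those with at least 14 tested members (member numbers in brackets). Black ticks give the share after correction for gene length and GC content, and dotted lines the share of all tested genes, 19.6% and 20.4%.

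The matrix lists differed in their counts. Over all tested genes, 19.6% were called higher and 20.4% lower. Of 23 basement membrane genes 15 were called lower and 1, Lama3, higher, with a median log2 fold change of -0.27. Levels of Lama3 were low, at 0.548 to 0.686 CPM on elastic and 0.678 to 1.44 CPM on viscoelastic gels. Lamc3, a laminin chain, fell with a log2 fold change of -0.66 (SE 0.087, adjusted p = 6.4e-05), the collagen IV chain Col4a2 at -0.49 (SE 0.056, adjusted p = 3.0e-05) and perlecan (Hspg2) at -0.46 (SE 0.073, adjusted p = 0.00025), all at both stiffnesses. With length and GC corrected, 10 were called lower and 5 higher, and without replicate 1 of the 2-kPa viscoelastic gels 3 were called higher. Of 19 fibrillar and associated collagens 7 were called lower and 1, Col8a2, higher, and the corrected counts were 5 and 5. Col12a1 and Col16a1 fell with log2 fold changes of -0.50 (SE 0.11, adjusted p = 0.0021) and -0.41 (SE 0.053, adjusted p = 6.1e-05), and Col8a2 rose with a log2 fold change of 0.31 (SE 0.070, adjusted p = 0.0030). Col1a1, the main chain of type I collagen, was at 5882 to 6415 CPM on elastic and 5686 to 6793 CPM on viscoelastic gels and had a log2 fold change of 0.025 (SE 0.060, adjusted p = 0.77). Fibronectin (Fn1) fell on average with a log2 fold change of -0.41 (SE 0.080, adjusted p = 0.00099) and the tenascin Tnxb at -0.67 (SE 0.10, adjusted p = 0.00014). The gelatinase Mmp9 fell with a log2 fold change of -1.68 (SE 0.28, adjusted p = 0.00032) at levels of 1.54 to 6.26 CPM on elastic and 0.888 to 1.49 CPM on viscoelastic gels.

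Several small leucine-rich proteoglycans rose. Of the 21 genes of this family and of hyaluronan metabolism, 7 were called higher and 6 lower, against 19.6% and 20.4% of all tested genes. The 4 called higher at both stiffnesses were the proteoglycans Ogn, Omd, Aspn and Fmod. Aspn and Fmod, named after their values were seen, had log2 fold changes of 0.59 (SE 0.11, adjusted p = 0.00060) and 0.57 (SE 0.093, adjusted p = 0.00028). Podn, of the same family, rose on average with a log2 fold change of 0.66 (SE 0.12, adjusted p = 0.00059). Cd44, the hyaluronan receptor, fell with a log2 fold change of -0.58 (SE 0.094, adjusted p = 0.00028). The count of lower members was 3 without replicate 3 of the 20-kPa elastic gels and 3 without replicate 1 of the 2-kPa viscoelastic gels.

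Among growth factor pathways the TGF-beta list had the most falls. Of 24 TGF-beta pathway and feedback genes 15 were called lower and 1, Smad6, higher. Only the latent TGF-beta binding protein Ltbp1, named after its values were seen, was called lower at both stiffnesses, against 5.33% of all tested genes. The averaged log2 fold change of Ltbp1 was -0.40 (SE 0.058, adjusted p = 0.00014). The effect on the ligands differed by stiffness in the interaction test: the log2 fold change of Tgfb1 was -0.84 at 2 kPa (adjusted p = 7.2e-05) and -0.26 at 20 kPa (adjusted p = 0.054), and that of Tgfb2 was -1.50 at 2 kPa (adjusted p = 0.00012) and 0.12 at 20 kPa (adjusted p = 0.66). The activin subunit Inhba fell on average with a log2 fold change of -0.46 (SE 0.10, adjusted p = 0.0016), with -0.19 at 2 kPa (adjusted p = 0.35) and -0.73 at 20 kPa (adjusted p = 0.0010). Smad6, an inhibitor of the pathway, rose with a log2 fold change of 0.18 (SE 0.047, adjusted p = 0.0076). Of 29 BMP genes 6 were called higher, a share near the 19.6% of all tested genes, and 10 lower, against 20.4%. The antagonist Grem1 fell at both stiffnesses, with a log2 fold change of -0.68 (SE 0.071, adjusted p = 1.9e-05) on average. Gdf5 fell with a log2 fold change of -0.62 (SE 0.16, adjusted p = 0.0060). Bmp4 rose with a log2 fold change of 0.93 (SE 0.24, adjusted p = 0.0066) at 0.238 to 0.981 CPM on elastic and 0.724 to 1.67 CPM on viscoelastic gels. Of 30 WNT genes 11 were called higher and 5 lower, against 19.6% and 20.4% of all tested genes. Among them the antagonist Sfrp2 rose with a log2 fold change of 0.84 (SE 0.10, adjusted p = 4.2e-05). Without replicate 1 or replicate 3 of the 2-kPa viscoelastic gels, 3 WNT genes were called lower. Of 19 insulin-like growth factor genes 7 were called higher, against 19.6% of all tested genes, and 4 lower, a share near the 20.4% of all tested genes. The lower count was 2 without replicate 2 of the 2-kPa elastic gels and 1 with length and GC corrected. Igfbp5 and Igfbp2, which bind these factors in the medium, rose at both stiffnesses, with log2 fold changes of 0.59 (SE 0.10, adjusted p = 0.00052) and 0.58 (SE 0.068, adjusted p = 3.1e-05), and the clearance receptor Igf2r fell with a log2 fold change of -0.41 (SE 0.061, adjusted p = 0.00016).

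Calcium handling genes were called in 1 direction, on gels of which the viscoelastic ones were crosslinked with calcium. Of 39 tested genes of calcium entry, pumps and calcineurin signalling, 16 were called lower and none higher, 9 at both stiffnesses, with a median log2 fold change of -0.14. With length and GC corrected, 16 were called lower and 1 higher, and the median was -0.075. The median exon length of these genes was 8030 bases, and of all tested genes of 7506 bases or more 39.7% were called lower. The release channel Itpr3 spanned 164 to 224 CPM on elastic and 108 to 138 CPM on viscoelastic gels and fell with a log2 fold change of -0.65 (SE 0.075, adjusted p = 2.8e-05). The mechanosensitive channel Piezo1 fell with a log2 fold change of -0.59 (SE 0.082, adjusted p = 9.3e-05) and the reticulum pump Atp2a2, SERCA2, at -0.44 (SE 0.056, adjusted p = 4.9e-05), with no overlap between gel types in any of the 3 genes. The part of calcium in these differences was not tested.

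Ribosomal protein genes rose almost throughout. Of 86 cytosolic ribosomal protein genes 78 were called higher and none lower, 71 at both stiffnesses, with a median log2 fold change of 0.35. Many have near-identical pseudogenes, so that single values are uncertain. Rpl23a was at 41.8, 38.2 and 32.2 CPM on 2-kPa elastic gels and 49.1, 43.8 and 60.3 CPM on 2-kPa viscoelastic gels. At 20 kPa Rpl23a was at 40.4, 42.1 and 36.6 CPM on elastic and 75.8, 63.8 and 74.7 CPM on viscoelastic gels. Its gel types did not overlap, and it rose with a log2 fold change of 0.65 (SE 0.080, adjusted p = 4.3e-05). Rpl36a and Rpl31 rose with log2 fold changes of 0.60 (SE 0.054, adjusted p = 1.0e-05) and 0.57 (SE 0.057, adjusted p = 1.6e-05). Nuclear genes of oxidative phosphorylation had 52 of 83 called higher and none lower, mitochondrial ribosomal proteins 41 of 77 higher and 1 lower, and proteasome subunits 20 of 39 higher and 1 lower. Examples, as log2 fold changes, are the complex I subunits Ndufa6 at 0.44 (SE 0.042, adjusted p = 1.4e-05) and Ndufa5 at 0.40 (SE 0.054, adjusted p = 8.1e-05), the ATP synthase subunit Atp5e at 0.42 (SE 0.045, adjusted p = 1.9e-05), Mrpl32 at 0.37 (SE 0.050, adjusted p = 7.8e-05) and Psmb1 at 0.26 (SE 0.038, adjusted p = 0.00012). None of the 8 tested oxidative phosphorylation genes of the mitochondrial genome was called by edgeR or DESeq2, and none had an unadjusted p under 0.05. Where a list above or below had no call in one direction, DESeq2 had none there either, and an unadjusted p under 0.05 was reached in that direction by 1 histone methylation gene, 1 calcium gene and 1 nuclear oxidative phosphorylation gene.

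**Figure D4:**
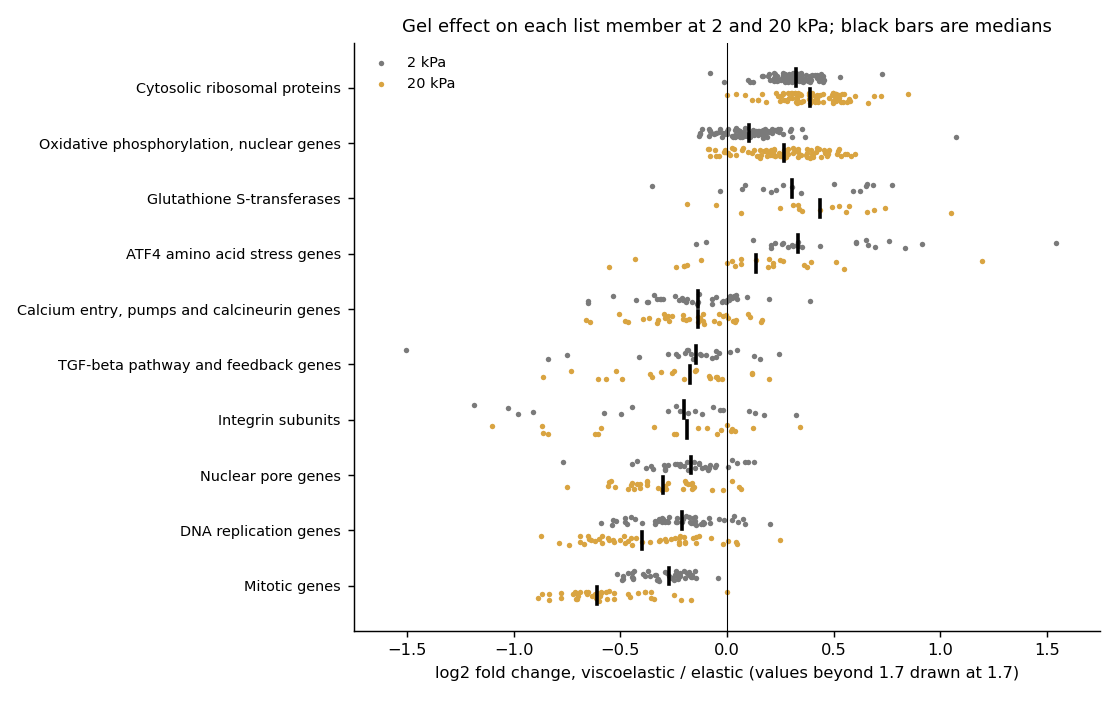
Log2 fold change between viscoelastic and elastic gels of every tested member of 10 gene lists, at 2 kPa (grey) and 20 kPa (yellow), with black bars at the medians. Most members of the mitotic list lie left of 0 at both stiffnesses, with medians of -0.27 and -0.61, and those of the cytosolic ribosomal list right of it, with medians of 0.32 and 0.39.

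The gel effect moved with gene length, which bears on these lists of short genes. Genes with a known exon length were ordered into 5 classes of like size. In the shortest class (median 1587 bases), 31.7% were called higher and 5.24% lower on average over stiffness, and in the longest class (median 9797 bases) 9.33% and 39.7%. The median log2 fold change fell from 0.13 to -0.098 across the classes, and did so at 2 kPa and at 20 kPa alike. Genes called higher at both stiffnesses had a median exon length of 2691 bases, those called lower at both 7267 and all tested genes one of 4332.5. With length and GC corrected, 353 of the 619 genes called higher at both stiffnesses and 463 of the 775 called lower at both were again called so at both, and 582 and 742 were called in that direction on average. The ribosomal list stayed high, with 69 of 86 called higher and a median of 0.23, and 42 of 43 mitotic and 27 of 34 nuclear pore genes were called lower. The other short-gene lists had fewer calls: oxidative phosphorylation had 25 called higher and 6 lower with a median of 0.046, mitochondrial ribosomal proteins 23 and 5, and proteasome subunits 8 and 4.

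**Figure D5:**
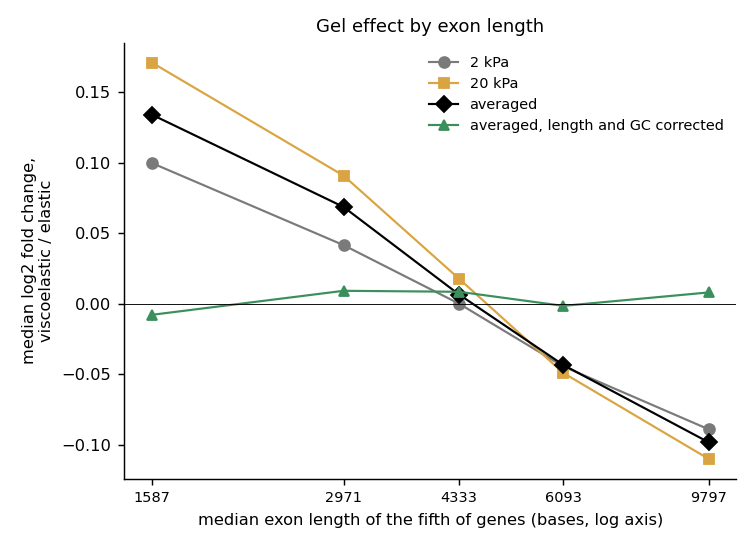
Median log2 fold change between viscoelastic and elastic gels in 5 classes of the tested genes ordered by exon length (log axis, bases), at 2 kPa, at 20 kPa, averaged, and averaged with gene length and GC content corrected. The uncorrected lines fall from the shortest to the longest genes, and the corrected line stays near 0, which the correction brings about by construction.

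ATF4 is the transcription factor whose translation rises when amino acids are short or the endoplasmic reticulum is stressed, and its targets supply amino acids and restrain translation. Of 25 tested genes 16 were called higher and 2 lower, 7 of the 16 at both stiffnesses, with a median log2 fold change of 0.23. Atf4 itself, given after its value was seen, was at 144, 188 and 169 CPM on 2-kPa elastic gels and 267, 250.5 and 271 CPM on 2-kPa viscoelastic gels. At 20 kPa Atf4 was at 204, 217 and 241 CPM on elastic and 293, 278 and 288 CPM on viscoelastic gels. It did not overlap between gel types and rose with a log2 fold change of 0.51 (SE 0.060, adjusted p = 3.2e-05). The related factor Atf5 was at 105, 121 and 106 CPM on 2-kPa elastic gels and 197, 204 and 192 CPM on 2-kPa viscoelastic gels. At 20 kPa Atf5 was at 135, 149 and 160.4 CPM on elastic and 214, 209 and 210.2 CPM on viscoelastic gels, again without overlap. Beside Stc2, the amino acid transporter Slc7a3 rose with a log2 fold change of 0.65 (SE 0.17, adjusted p = 0.0065), and the transporter Slc7a5 fell with a log2 fold change of -0.33 (SE 0.078, adjusted p = 0.0041). Slc7a3 did not pass the test at 20 kPa, with 0.55 (adjusted p = 0.090). Slc7a5 had -0.099 at 2 kPa (adjusted p = 0.56) and -0.55 at 20 kPa (adjusted p = 0.0017). Levels of Slc7a3 were low, at 0.889 to 1.07 CPM on elastic and 1.17 to 2.31 CPM on viscoelastic gels. Of 20 endoplasmic reticulum chaperones 2 were called higher and 5 lower, against 19.6% and 20.4% of all tested genes.

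TGATGNAA, the core of the element that ATF4 binds with C/EBP partners, was in 6 of 22 (27.3%) promoters of this list on either strand, against 252 of 10882 (2.32%) over all tested genes. The list was made of ATF4 genes, and its members were counted whether called or not. The share therefore describes the list and not the gel effect. The 2 shown had the largest rises among eligible members that hold it and were called higher at both stiffnesses at a mean of at least 5 CPM. They are Nupr1 (chr7:126625421-126625720, minus strand) and Pycr1 (chr11:120643699-120643998, minus strand), with the match in capitals.
Nupr1: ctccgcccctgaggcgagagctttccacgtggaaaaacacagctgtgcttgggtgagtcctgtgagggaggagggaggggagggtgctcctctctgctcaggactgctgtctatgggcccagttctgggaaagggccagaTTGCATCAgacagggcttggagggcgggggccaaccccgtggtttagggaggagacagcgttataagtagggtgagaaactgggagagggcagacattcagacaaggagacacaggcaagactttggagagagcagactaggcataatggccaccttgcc
Pycr1: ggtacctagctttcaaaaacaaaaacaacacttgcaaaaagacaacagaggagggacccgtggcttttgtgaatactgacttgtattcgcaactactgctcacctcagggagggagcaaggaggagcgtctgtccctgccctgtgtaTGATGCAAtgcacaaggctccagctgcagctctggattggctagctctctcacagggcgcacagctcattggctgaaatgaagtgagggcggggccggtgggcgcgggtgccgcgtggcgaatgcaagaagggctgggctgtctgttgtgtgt
Nupr1, a small stress-induced chromatin protein, rose with a log2 fold change of 0.54 (SE 0.060, adjusted p = 2.5e-05), and Pycr1, which makes proline, at 0.40 (SE 0.061, adjusted p = 0.00019).

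Of 17 tested glutathione S-transferases 12 were called higher and none lower, 7 at both stiffnesses, with a median log2 fold change of 0.39. These enzymes join glutathione to reactive compounds. Gstm2 and Gstk1 rose with log2 fold changes of 0.72 (SE 0.066, adjusted p = 1.1e-05) and 0.62 (SE 0.12, adjusted p = 0.00079), beside Gstm1. The Gstm genes are similar in sequence, so reads may have been split among them. Of 26 NRF2 antioxidant genes 12 were called higher and 3 lower, and 8 and 5 with length and GC corrected: heme oxygenase (Hmox1) rose with a log2 fold change of 0.63 (SE 0.10, adjusted p = 0.00018), superoxide dismutase (Sod1) at 0.37 (SE 0.041, adjusted p = 2.2e-05) and the ferritin heavy chain (Fth1) at 0.38 (SE 0.093, adjusted p = 0.0048), whereas the cystine transporter Slc7a11 fell with a log2 fold change of -0.53 (SE 0.14, adjusted p = 0.0091). The transferrin receptor Tfrc, which brings iron into the cell and was named after its value was seen, fell with a log2 fold change of -0.71 (SE 0.10, adjusted p = 7.5e-05).

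Of 28 complement, chemokine and cytokine genes 13 were called higher and 10 lower, against 19.6% and 20.4% of all tested genes. Beside the complement genes above, the cytokine Lif and the chemokine Ccl8 fell, with log2 fold changes of -0.94 (SE 0.19, adjusted p = 0.0015) and -1.25 (SE 0.26, adjusted p = 0.0017), Ccl8 at 0.616 to 1.71 CPM on elastic and 0.239 to 0.683 CPM on viscoelastic gels. Of 34 interferon-stimulated genes 8 were called higher, a share near the 19.6% of all tested genes, and none lower, against 20.4%. At both stiffnesses 1 was called higher, against 4.26% of all tested genes. Ifitm3, a membrane protein against virus entry, was that gene and rose with a log2 fold change of 0.39 (SE 0.056, adjusted p = 0.00012). The count called higher on average was 5 without replicate 2 of the 20-kPa viscoelastic gels and 5 with length and GC corrected. In fatty acid synthesis 9 of 16 genes were called lower and 3 higher, the latter 1 without replicate 2 of the 20-kPa elastic or replicate 1 of the 20-kPa viscoelastic gels, with Fasn and Acaca, the main enzymes of this pathway, lower at log2 fold changes of -0.46 (SE 0.064, adjusted p = 9.0e-05) and -0.31 (SE 0.061, adjusted p = 0.0012).

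The remaining 17 lists covered 458 tested genes, of which 78 (17.0%) were called higher and 109 (23.8%) lower, against 19.6% and 20.4% of all tested genes. They held genes of glycolysis, cholesterol synthesis, chaperones, lysosomes, RNA polymerases, splicing, actin assembly, motors, tubulins, caveolae, proteinases and matrix glycoproteins, the immediate early genes and those of DNA methylation, collagen processing and G1 named above. Single lists could differ from the pooled shares. Of 15 tubulins 7 were called lower and 2 higher, and of 30 matrix glycoprotein and elastic fibre genes 13 lower and 7 higher. The median log2 fold changes of the 17 lists were between -0.16 and 0.077. Among them, Egr1 and Egr2, early growth response factors, rose on average with log2 fold changes of 0.49 (SE 0.12, adjusted p = 0.0042) and 0.84 (SE 0.18, adjusted p = 0.0018), and Atf3 fell with a log2 fold change of -0.74 (SE 0.18, adjusted p = 0.0050). At 2 kPa alone Egr1 and Egr2 had log2 fold changes of 0.21 (adjusted p = 0.40) and 0.44 (adjusted p = 0.24). The glycolytic aldolase Aldoc and the hypoxia-inducible peptide gene Adm rose at both stiffnesses, with log2 fold changes of 0.72 (SE 0.13, adjusted p = 0.00046) and 0.58 (SE 0.14, adjusted p = 0.0046) on average. The aggrecanase Adamts5 rose on average with a log2 fold change of 0.83 (SE 0.11, adjusted p = 7.5e-05), with 1.32 at 2 kPa (adjusted p = 0.00010) and 0.33 at 20 kPa (adjusted p = 0.11).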

How the data were processed

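Polyadenylated RNA of 12 fibroblast cultures, 3 on each of 4 alginate gels, was sequenced. Per the labels and the study's methods, the authors used Trimmomatic for trimming, STAR for alignment to mm10 and featureCounts for counting, and they deposited the raw counts of 33246 gene symbols in 1 table. Tool versions are not printed here, and the annotation release, strand setting and treatment of multimapping reads were not given in the sources used here. Overlapping, antisense and duplicated genes could therefore share reads.

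From these counts, 14542 genes were kept by filterByExpr (minimum count 10, minimum total 15), scaled by TMM and fitted with edgeR 4.0.16 in R 4.3.3. The quasi-likelihood test was run for the gel effect averaged over stiffness, at 2 kPa, at 20 kPa and for their difference, with 1 mean per group, and the Benjamini-Hochberg threshold was 0.05 over all tested genes. The biological coefficient of variation was 7.50%. SE is the absolute log2 fold change divided by the root of the quasi-F statistic. Scripts were tested on simulated data. Exon lengths and GC content (14314 genes) came from a GENCODE mouse annotation, matched by symbol or synonym. Promoters came from RefSeq GRCm38.p6, matched by symbol. Gene length and GC content were corrected with a loess trend per sample (span 0.3). DESeq2 1.42.0 and limma 3.58.1 (voom) were alternatives, with other scalings, filters and thresholds, an additive model, a replicate block and leaving out each sample in turn. An alternative without replicate 2 of both viscoelastic groups was chosen after seeing the data.

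The genes named were the 12 with the largest change and the 4 with the lowest p in each direction among consistent genes with a mean of at least 5 CPM, the 3 with the largest change in each direction per list, and a fixed set of 9 genes. Not all of them are printed, and others are marked as named after their values were seen, as were Bub3, Nupr1, Uhrf1, Pola1 and Pycr1. The members and the gene lists were chosen with earlier results of these data known, so no list is independent evidence.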

Additional observations from a re-analysis of the deposited data

Results flagged for a closer look

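For 11 of the genes named above the gel effect at 20 kPa differed from that at 2 kPa by the interaction test of edgeR (BH adjusted p over all tested genes). The value given is the log2 fold change between viscoelastic and elastic gels at 20 kPa minus that at 2 kPa. Among them, 5 were still called in the same direction at both stiffnesses: Ankrd55 at -0.76 (SE 0.20, adjusted p = 0.032), Gstm1 at 0.40 (SE 0.10, adjusted p = 0.022), Mamdc2 at 1.27 (SE 0.32, adjusted p = 0.025), Atp5e at 0.35 (SE 0.090, adjusted p = 0.028) and Lbr at -0.49 (SE 0.11, adjusted p = 0.016).

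Among the others, Acta2 had opposite effects at the 2 stiffnesses, with an interaction of -0.71 (SE 0.12, adjusted p = 0.0016). The ligands Tgfb2 and Tgfb1 fell at 2 kPa and differed by 1.62 (SE 0.26, adjusted p = 0.0016) and 0.59 (SE 0.14, adjusted p = 0.017). Adamts5 had the larger rise at 2 kPa, at -0.99 (SE 0.22, adjusted p = 0.014), and Cdkn1c the larger rise at 20 kPa, at 1.29 (SE 0.24, adjusted p = 0.0048). Mgp, which was not called on average, had 0.80 (SE 0.21, adjusted p = 0.031). The cause of these differences was not tested.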

How the results depend on the processing

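Each group held 3 samples, and genes near 1 CPM such as Mmp9, Ccl8 and Bmp4 rest on few reads. Counts of called genes moved by over 1.5 times under these settings. At an adjusted p under 0.01, 3730 genes were called on average (1773 higher, 1957 lower), 505 at both stiffnesses (238 and 267), and 400 for the difference between stiffnesses. With limma voom 2243 genes were called at both stiffnesses (978 and 1265), and with a replicate block plus the length and GC correction 892 (410 and 482). Leaving out 1 sample gave 4914 to 6061 genes on average (2373 to 2973 higher, 2541 to 3088 lower), 767 to 1678 at both stiffnesses (356 to 663 and 411 to 1015), and 670 to 1182 for the difference. The replicate block alone gave 5475 genes on average (2669 higher, 2806 lower), 1213 at both stiffnesses and 845 for the difference. Deviations from the group means were compared between elastic and viscoelastic samples of the same stiffness. Same-numbered samples correlated between -0.16 and 0.050, and 1 of 6 correlated best with its own number. Samples of different stiffness were not compared, so a batch shared by same-numbered samples was not tested. DESeq2 called 5793 genes on average (2747 higher, 3046 lower). With total counts alone it was 3538 higher and 2309 lower. Of 3620 values of the 145 genes over all alternatives, 3577 kept their direction and side of the threshold. Col1a1, not called, ranged from -0.010 (without replicate 2 of the 2-kPa viscoelastic gels) to 0.054 over the fits that left out 1 sample and changed sign to -0.018 without replicate 2 of both viscoelastic groups. Bub3, not called, changed sign to 0.014 with total counts, 0.031 with the length and GC correction and 0.032 when the block was added. Hdac1, Rpa3 and Col6a2 lost their call with the length and GC correction, at 0.063, 0.020 and -0.017, while Acta2 and Mgp gained one, at -0.20 and -0.32. The cause of these changes was not tested.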
